A study of Oncorhynchus mykiss with 42 samples.

Results

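Testes of rainbow trout at 2 stages of maturation, III and I-II, were compared after 96 h of culture without hormone. The comparison rests on the 12 arrays titled as control cultures, 6 of stage III and 6 of stage I-II, out of 42 arrays in the series, and on the 8175 cDNA clones that have values in the deposited log2 table. The fish came from an all-male population and their testes were cut into fragments and kept on membrane inserts in modified L15 medium with 2% Ultroser SF at 12 °C, with a change of medium after 48 h. Alongside the hormone-free cultures (called Ctrl here), the series holds fragments of both stages that received purified salmonid FSH or LH at 500 ng/mL for the same 96 h, with 6 arrays for each stage and hormone. It also holds 3 arrays of each stage labelled T0, which are taken here as tissue before culture. All cultured groups shared the medium, its supplement and the temperature, so Ctrl is free of added gonadotropin but not of medium supplement. The labels do not tie arrays to fish, do not give the age of the fish and do not say which cells each stage held. Stage therefore cannot be told apart from the fish that supplied it, and p-values measure the spread between these arrays, which may be technical.

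In the trout testis, germ cells develop in cysts formed by Sertoli cells, and later maturation stages hold germ cells further along the path from spermatogonia to sperm. Leydig cells in the tissue between the cysts make androgens. FSH and LH, the pituitary gonadotropins, act on these somatic cells, and the germ cells receive much of the hormonal signal through them. Whole testis was measured, so fewer cells of a type and less RNA per cell cannot be told apart in any result below.

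Each array was a nylon membrane hybridised with 1 sample of cDNA carrying radioactive phosphorus (33P), and a value is the log2 signal of a spotted clone in the authors' normalized table. Array medians in that table lay between 7.15 and 7.17, and single values ran from 3.86 to 15.04. The files pair no clone with a gene, and a search of the gene table of trout assembly USDA_OmykA_1.1 matched 0 clone IDs. Clones are therefore named by ID, 0 of the lists of pathway genes and cell type markers could be tested, and the testis label could not be checked against markers. On the first principal component of the 36 cultured arrays, which carried 18.1% of the variance, the 18 stage I-II arrays lay between -16.5 and -8.28 and the 18 stage III arrays between 7.46 and 17.9. Stage I-II Ctrl arrays resembled each other more closely (each array's median correlation with its own group over clones, 0.979 to 0.982) than stage III Ctrl arrays did (0.943 to 0.967). Stage III Ctrl arrays had nearly the same median correlations with the stage I-II Ctrl arrays (0.941 to 0.961) as with each other.

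Without hormone, 903 of 8175 clones (11%) differed between the stages at an adjusted p under 0.05, the threshold for a call throughout. Of these, 468 clones (5.72%) were higher in stage III and 435 (5.32%) were lower. Most differences were modest. The log2 difference, stage III minus stage I-II, ran from 0.30 to 2.08 among the higher clones with a median of 0.53, and from -2.04 to -0.30 among the lower clones with a median of -0.56. At least a 2-fold difference was reached by 33 higher (0.404%) and 41 lower clones (0.502%), 74 in all (0.905%). The median difference over all 8175 clones was 0.01 with an SD over clones of 0.29. Calls come from limma fitted to all 42 arrays with Benjamini-Hochberg adjustment over all clones. In 234 of the higher clones every stage III array lay above every stage I-II array, and in 214 of the lower clones every stage III array lay below. Among all clones 511 (6.25%) showed such a separation of the arrays, 262 (3.2%) higher and 249 (3.05%) lower.

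The 2 higher and 2 lower clones furthest apart in Ctrl also had the greatest smallest difference over Ctrl, FSH and LH among the clones called in all 3. Clone tcba0019.j.11 was the most raised in stage III. Its log2 signal lay between 6.23 and 6.48 (median 6.42) on the 6 stage I-II Ctrl arrays and between 7.80 and 9.50 (median 8.43) on the 6 stage III Ctrl arrays. All 6 stage III arrays were above all stage I-II arrays, and the stage III arrays were the more spread, at 6.40 ± 0.09 against 8.48 ± 0.64 (mean ± SD, n = 6 each). The difference of 2.08 ± 0.22 (SE) is 4.22-fold (limma, adjusted p = 1.58e-09). Its signal exceeded background on 4 of 6 Ctrl arrays of stage I-II, so the fold rests partly on dim spots. The gap was 2.04 with FSH (adjusted p = 2.73e-09) and 2.06 with LH (adjusted p = 3.53e-09), again with no overlap between the stages.

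Clone tcay0035.a.07 ranked next. Its stage I-II Ctrl arrays lay between 6.71 and 7.36 (median 6.99) and its stage III Ctrl arrays between 8.55 and 9.38 (median 8.85). The stages did not overlap. The log2 difference was 1.89 ± 0.15 (SE), a 3.71-fold higher signal in stage III (limma, adjusted p = 7.98e-13). With FSH the 2 groups lay at 6.51 to 7.29 and 8.49 to 9.36, a log2 difference of 2.03. With LH they lay at 6.65 to 7.44 and 8.47 to 8.85, a log2 difference of 1.62.

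On the lower side, tcad0008.j.15 had 10.43 to 10.85 (median 10.49) on stage I-II Ctrl arrays and 7.99 to 9.07 (median 8.51) on stage III Ctrl arrays. Its stages were separate by more than 1 log2 unit. The log2 difference was -2.04 ± 0.17 (SE), 4.13-fold lower in stage III (limma, adjusted p = 1.95e-12). In the hormone arrays of tcad0008.j.15 the gap was -1.39 with FSH and -1.36 with LH. Stage III arrays had medians of 9.90 with FSH and 9.62 with LH, and stage I-II arrays 11.35 and 10.99. Both stages thus had higher medians with either hormone than in Ctrl, and the arrays of the 2 stages still did not overlap. Clone tcay0009.l.07, one of the brightest clones, lay between 12.32 and 12.88 (median 12.63) on stage I-II Ctrl arrays and between 10.38 and 11.32 (median 10.73) on stage III Ctrl arrays. The log2 difference of -1.83 ± 0.14 (SE) is 3.55-fold (limma, adjusted p = 1.19e-13). It was -1.41 with FSH and -1.65 with LH, and the arrays of the stages did not overlap in either.

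**Figure D1:**
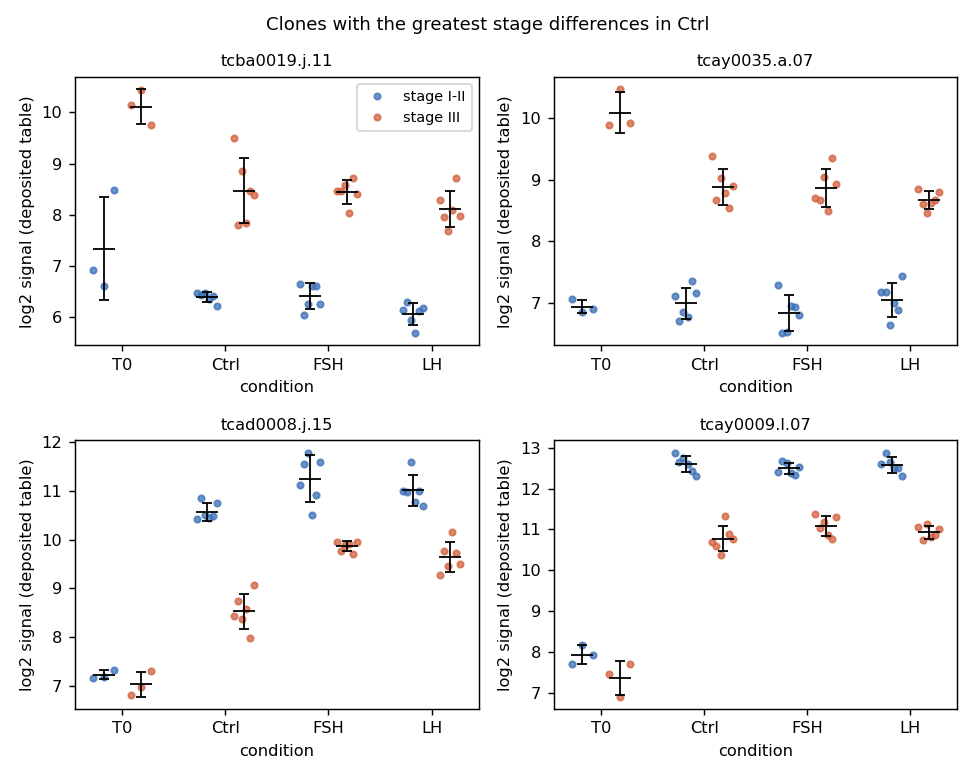
Log2 signal of the 4 clones with the greatest stage differences in Ctrl, by condition on the x axis (T0, n = 3 arrays per stage; Ctrl, FSH and LH, n = 6). Points are arrays (blue, stage I-II; red, stage III) and bars are mean ± SD; in Ctrl, FSH and LH the colours do not overlap for any of the 4 clones, and for tcad0008.j.15 and tcay0009.l.07 they overlap at T0.

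The membranes of the 2 stages also differed in a quantity that is not a clone. The 128 repeated control positions, taken from the layout as those of the ID cvu03687, had a median signal of 285 ± 69.9 intensity units on stage I-II Ctrl arrays (range 231.5 to 420) and 120 ± 25.2 on stage III Ctrl arrays (range 93.5 to 166). They did not overlap (two-sided exact permutation test, p = 0.00216, the smallest that 6 against 6 allows; 0.00974 adjusted over 9 comparisons of array levels). With FSH the earlier stage had 199 ± 25.3 and the later one 127 ± 21.9 (exact permutation p = 0.00216, adjusted 0.00974). With LH they were 124.5 ± 18.4 and 131 ± 31.5 (exact permutation p = 0.781, adjusted 0.857). With the control level as a covariate in the limma fit, the calls in Ctrl fell to 399, of which 379 were among the 903 and in the same direction, and standard errors were 1.36 times as large. All 903 clones kept their sign. With the covariate FSH had 778 calls against 909, with 715 shared, and LH had 939 against 945, with 928 shared. The median raw signal of clone positions was 152 ± 15.3 on Ctrl arrays of stage I-II against 128 ± 23.9 on those of stage III (exact permutation p = 0.0801, adjusted 0.103). The stages differed in this raw signal with FSH, 153 ± 15.3 against 119 ± 15.6 (exact permutation p = 0.00866, adjusted 0.026), and with LH, 135 ± 21.0 against 104 ± 20.2 (exact permutation p = 0.026, adjusted 0.0468).

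**Figure D2:**
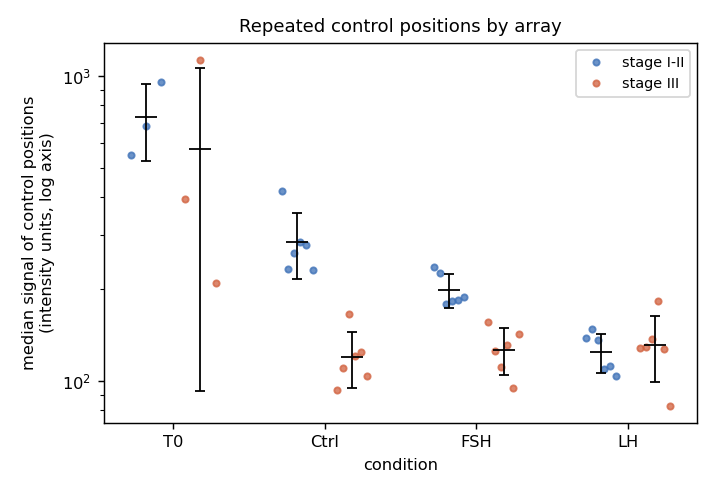
Median signal of the 128 repeated control positions on each array, in intensity units on a log axis, by condition on the x axis. Points are arrays (blue, stage I-II; red, stage III) and bars are mean ± SD (T0, n = 3 per stage; others, n = 6); the stages lie apart in Ctrl (231.5 to 420 against 93.5 to 166) and overlap in LH.

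The stage differences were then followed into the hormone arrays, none of which is a Ctrl array. In FSH, 909 clones (11.1%) were called between the stages, 458 (5.6%) higher in stage III and 451 (5.52%) lower. In LH, 945 (11.6%) were called, 402 (4.92%) higher and 543 (6.64%) lower. Of the 468 clones higher in stage III Ctrl, 291 (62.2%) were called higher in FSH as well and 219 (46.8%) in LH. Of the 435 lower clones, 249 (57.2%) were called lower in FSH and 257 (59.1%) in LH. Seen from the hormone lists, 63.5% of the clones higher in stage III with FSH and 54.5% of those higher with LH were also called in Ctrl. The matching shares for lower clones were 55.2% for FSH and 47.3% for LH. Not 1 of the 903 clones was called in the opposite direction in either hormone. This count of 0 holds for calls, and by sign alone 9 higher and 11 lower clones were turned in FSH, and 27 and 18 in LH.

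Calls in the same direction in Ctrl, FSH and LH were found for 375 clones (4.59%), 186 higher in stage III (2.28%) and 189 lower (2.31%). They were 39.7% of the higher and 43.4% of the lower Ctrl clones. The median log2 difference of the 186 higher clones was 0.67 in Ctrl, 0.73 in FSH and 0.62 in LH. For the 189 lower clones it was -0.70, -0.66 and -0.71. A difference of at least 2-fold in all 3 conditions was measured for 16 higher and 14 lower clones. A further 105 higher and 60 lower clones were called in Ctrl and FSH but not LH, and 33 higher and 68 lower clones in Ctrl and LH but not FSH.

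Clones called in neither hormone numbered 144 on the higher side and 118 on the lower side. Their differences were smaller with hormone but mostly of the same sign. The 144 higher clones had a median log2 difference of 0.46 in Ctrl, 0.23 in FSH and 0.16 in LH, and 116 of them kept their sign in both hormones while 4 had the opposite sign in both. The 118 lower clones had medians of -0.48, -0.23 and -0.24, with 94 of the same sign in both and 2 of the opposite sign in both. These clones were picked by their calls in Ctrl and by the lack of one with hormone. The choice itself therefore makes their Ctrl differences larger and their hormone differences smaller. Conversely, 36 higher and 74 lower clones were called in FSH and LH but not in Ctrl. Of these, 35 and 74 had the same sign in Ctrl, with medians of 0.28 and -0.28.

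**Figure D3:**
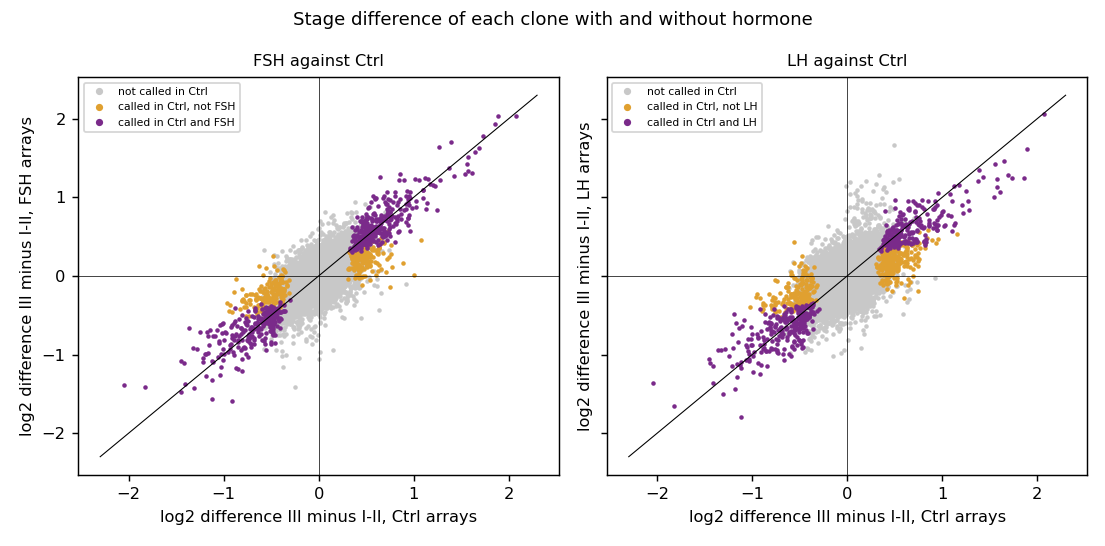
Log2 difference between stages (III minus I-II) of each of 8175 clones in Ctrl on the x axis, against the same in FSH (left) and LH (right) on the y axis; the diagonal marks equal differences. Purple clones were called in Ctrl and in that hormone (291 higher and 249 lower for FSH, 219 and 257 for LH), orange clones in Ctrl and not in that hormone, and none of the called clones has a call of opposite sign.

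More of the larger differences in Ctrl were called again with hormone, as larger differences pass a test more easily. Of the 353 clones that were called with a log2 difference under 0.5, 71 (20.1%) were called in both hormones and 159 in neither, yet 338 had the same sign in FSH and 324 in LH, with median ratios of the hormone difference to the Ctrl difference of 0.75 and 0.68. Of the 476 clones between 0.5 and 1, 234 (49.2%) were called in both and 103 in neither. Of the 74 clones of at least 1, 70 (94.6%) were called in both and 0 in neither, and all 74 had the same sign in both hormones. In that group the median ratio was 0.90 for FSH and 0.79 for LH. Over all 903 clones the median ratio was 0.83 for FSH and 0.73 for LH, values that the choice of clones by their Ctrl difference lowers. Over all 8175 clones, chosen by no call, the sign in FSH was that in Ctrl for 72.1% and the sign in LH for 65.5%. The differences correlated across clones with r = 0.75 between Ctrl and FSH and r = 0.65 between Ctrl and LH. Clones are not independent replicates, and the 3 conditions share the spot of each clone and may share fish.

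Taken array by array, the clones called in Ctrl separated the stages in the hormone arrays too. Each array was summarised by the median, over the 468 higher clones, of its log2 value minus the midpoint of the 2 Ctrl groups. In FSH this lay between -0.30 and -0.18 on the 6 stage I-II arrays and between 0.17 and 0.33 on the 6 stage III arrays. In LH it lay between -0.25 and -0.06, and between 0.12 and 0.36. For the 435 lower clones the stage I-II arrays lay at 0.27 to 0.33 in FSH and 0.23 to 0.30 in LH, and the stage III arrays at -0.25 to -0.12 and -0.30 to -0.18. The same median over all clones stayed between -0.036 and 0.045 on the cultured arrays. The direction and size that chose these clones come from the Ctrl arrays, while the FSH and LH arrays entered the choice through the shared estimate of spread; a fit on the Ctrl arrays alone called 854 clones.

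**Figure D4:**
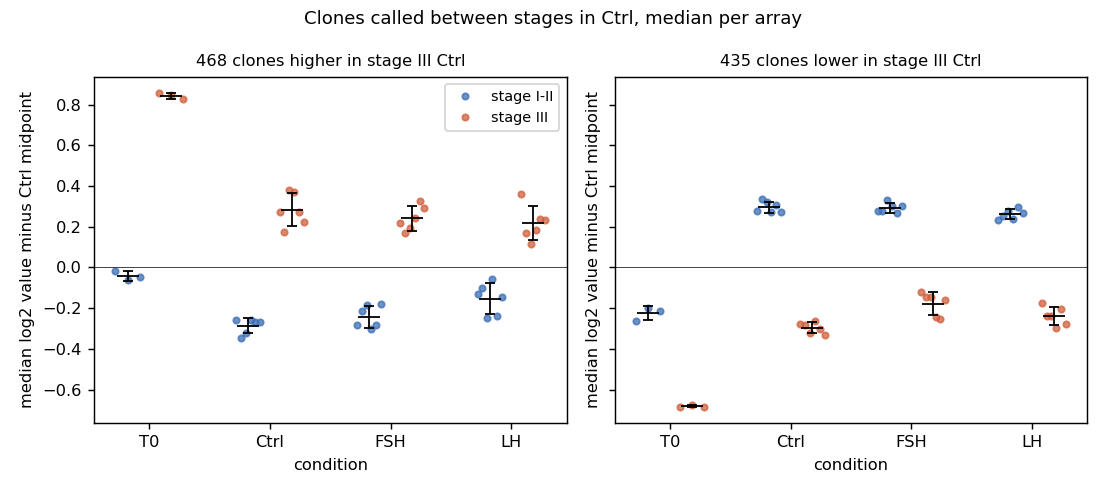
Median log2 value per array, minus the midpoint of the Ctrl groups, over the 468 clones higher (left) and the 435 clones lower (right) in stage III Ctrl, by condition on the x axis. Points are arrays (blue, stage I-II; red, stage III) and bars are mean ± SD; the clones were called on their Ctrl difference, with the spread estimated from all 42 arrays, and in FSH and LH the stages lie on opposite sides of 0.

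Whether the stage difference itself changed with hormone was tested by an interaction term. It was called for 0 of 8175 clones with FSH (0%) and for 0 with LH (0%). The lowest adjusted p by limma was 0.475 for FSH and 0.547 for LH. At an unadjusted p under 0.05, 318 clones passed for FSH and 557 for LH, where 409 would be reached with no difference at all. Among the 903 Ctrl clones 86 passed that mark for FSH and 143 for LH. These clones were chosen by their Ctrl difference, which each interaction subtracts, so the choice itself raises both counts. The median half-width of the 95% interval of an interaction was 0.41 log2 units against 0.29 for the Ctrl difference. That half-width is for a single clone without adjustment, and a call over 8175 clones needs a larger change. An interaction of 0.99 for 1rt94b04_d_a02 with LH was not called (limma, adjusted p = 0.547). The count of 0 therefore does not exclude changes above 0.41 log2 units. Clones called in Ctrl but not with hormone are not shown to differ between the conditions. The 95% interval of the FSH difference included the Ctrl estimate for 75.2% of the 903 clones, and that of the LH difference for 67.0%. The Ctrl estimate has an error of its own and was used to choose these clones. Shares under 95% would therefore arise without any change. Both interactions use the same Ctrl arrays.

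The clones with the lowest p for an interaction in each direction are described next, and none of them is a call. For FSH the nearest was tcbk0004.d.07, which was lower in stage III without hormone. Its stage I-II arrays lay at 9.69 to 10.13 (median 9.96) in Ctrl and at 8.62 to 9.35 (median 8.80) with FSH, while stage III arrays lay at 8.69 to 9.53 (median 9.03) and 8.40 to 9.13 (median 8.98). The stages were separate in Ctrl and overlapped with FSH. The log2 difference was -0.87 in Ctrl (adjusted p = 1.31e-05), -0.04 with FSH (95% interval -0.33 to 0.24) and -0.37 with LH (adjusted p = 0.0749), and the FSH interaction was 0.82 ± 0.20 (SE; limma, adjusted p = 0.475). Its spot touches one over 4 times brighter. Clone tcay0025.d.21 ran the other way, with overlapping stages in Ctrl and separate ones with FSH. There, stage I-II arrays lay at 8.48 to 9.21 and stage III arrays at 7.53 to 8.08. Its difference of -0.21 in Ctrl (adjusted p = 0.442) compares with -1.04 with FSH (adjusted p = 1.75e-06), with an interaction of -0.84 (limma, adjusted p = 0.475).

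For LH the nearest clones were 1rt94b04_d_a02 and tcay0036.l.01. Clone 1rt94b04_d_a02 had 7.04 to 8.17 (median 7.60) in stage I-II Ctrl and 6.43 to 7.36 (median 7.08) in stage III Ctrl, which overlap. With LH the order was turned, with 7.25 to 7.53 (median 7.44) in stage I-II and 7.32 to 8.77 (median 7.78) in stage III. The log2 difference was -0.56 in Ctrl (adjusted p = 0.0198) and 0.43 with LH (adjusted p = 0.0904), an interaction of 0.99 ± 0.24 (SE; limma, adjusted p = 0.547). The spot of 1rt94b04_d_a02 touches a brighter one, and the Ctrl call was lost when stage I-II array 21 or stage III array 58 was left out (adjusted p up to 0.0881). That call was also lost from scanner values (limma, adjusted p = 0.1135) and with the control level as a covariate (0.161). Without stage III array 71 the LH difference of 1rt94b04_d_a02 became a call opposite to that in Ctrl (0.53, limma adjusted p = 0.0348), and without stage III array 67 it was 0.24 (adjusted p = 0.359). Clone tcay0036.l.01 differed by 0.17 in Ctrl (adjusted p = 0.339) and by -0.43 with LH (adjusted p = 0.0028), an interaction of -0.60 (limma, adjusted p = 0.547).

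Among clones called in Ctrl and in neither hormone, 1rt65f10_d_c05 and 1rt94b04_d_a02 lost most of their estimated difference. None of their interactions was called. For 1rt65f10_d_c05 they were -0.90 with FSH and -0.95 with LH (limma, adjusted p = 0.475 and 0.547). Its T0 difference was -1.14 (limma, adjusted p = 0.000251), opposite in sign to that in Ctrl. The highest scanner intensity, 34468, was reached on 9 arrays, and whether it limited bright spots was not tested. Clone 1rt65f10_d_c05 is among the brightest clones. Its stage I-II arrays lay at 12.66 to 13.30 (median 12.93) in Ctrl and its stage III arrays at 13.26 to 13.96 (median 13.73), with 5 of 6 stage III arrays above all stage I-II arrays. With FSH the ranges were 13.44 to 14.83 and 13.65 to 14.15, and with LH 13.96 to 14.67 and 13.88 to 14.28. The log2 difference of 1rt65f10_d_c05 was 0.75 in Ctrl (adjusted p = 0.00134; 0.0616 with the control level as a covariate), -0.15 with FSH (95% interval -0.48 to 0.19) and -0.20 with LH (95% interval -0.53 to 0.14).

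**Figure D5:**
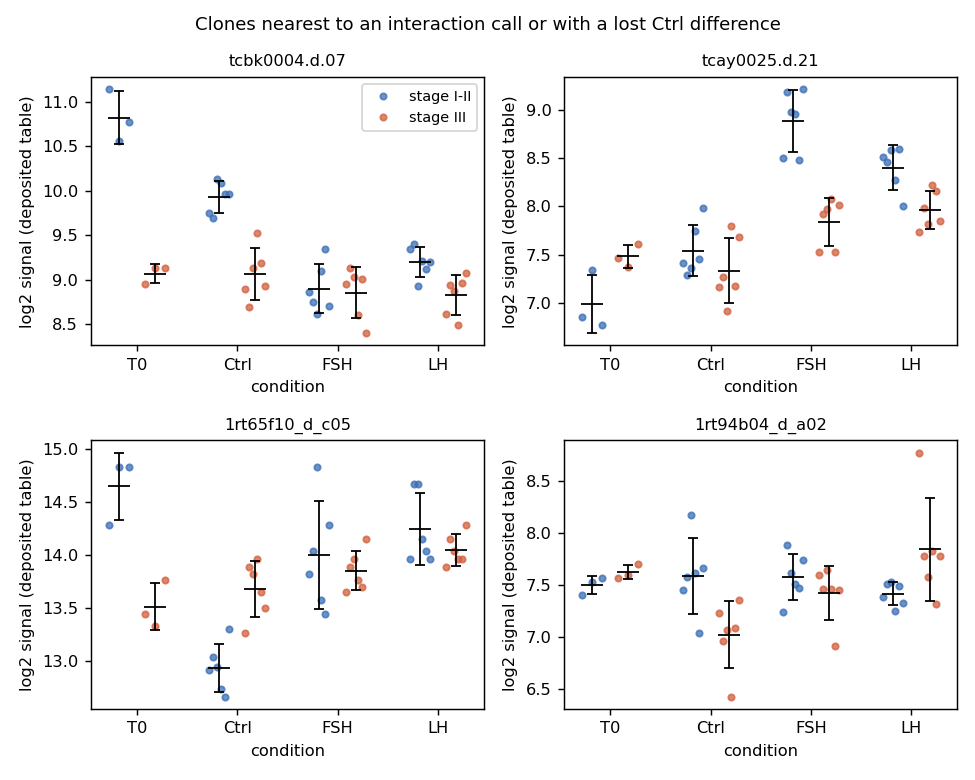
Log2 signal of 4 clones, the pair nearest to an FSH interaction call and the pair that lost most of a Ctrl difference with both hormones, by condition on the x axis (T0, n = 3 arrays per stage; others, n = 6). Points are arrays (blue, stage I-II; red, stage III) and bars are mean ± SD; no interaction passed the test, the lowest adjusted p being 0.475 for FSH and 0.547 for LH.

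Of the 74 clones with at least a 2-fold difference in Ctrl, 4 were not called in all 3 conditions; they are named because there are so few and were chosen after their values were seen. Clone 1rt128j01_b_e01 was lower in stage III, with log2 differences of -1.02 in Ctrl and -0.73 with FSH, and its -0.39 with LH had an adjusted p of 0.0634 (limma). The LH difference of 1rt128j01_b_e01 was called in the fit on the LH arrays alone (adjusted p = 0.0398), among the brighter clones only (0.0453), from scanner values (0.00765) and without stage I-II array 34 (0.049). Clone tcay0034.k.06 was higher by 1.16 in Ctrl and 1.24 with FSH, and its 0.53 with LH had an adjusted p of 0.108. Stage I-II LH arrays of tcay0034.k.06 ran from 6.03 to 7.91, and its signal exceeded background on 1 of these 6 arrays. The LH difference therefore rests partly on dim spots. It was called without stage I-II array 35 (0.76, limma adjusted p = 0.00821) or stage III array 69 (0.67, limma adjusted p = 0.0387). Clone 1rt124h16_d_d08 was higher by 1.00 in Ctrl and 0.81 with LH, while with FSH its stages lay at 6.46 to 7.19 and 6.51 to 7.20, a difference of 0.02 (adjusted p = 0.979). Clone tcbk0055.b.19 was not well above background on any stage I-II Ctrl array, so its Ctrl difference (limma, adjusted p = 0.000742) is a lower bound, with stage III at least 1.22-fold higher. With the control level as a covariate this Ctrl call was lost (limma, adjusted p = 0.165). With FSH its difference was 0.46 (limma, adjusted p = 0.215), and from scanner values 0.75 (limma, adjusted p = 0.00578). In FSH tcbk0055.b.19 exceeded background on 1 of 6 stage I-II arrays and 2 of 6 stage III arrays, so both values rest largely on dim spots.

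Before culture the same stages differed at more clones. With 3 arrays against 3, 1929 clones (23.6%) were called at T0, 945 (11.6%) higher in stage III and 984 (12%) lower. Of the 468 clones higher in stage III Ctrl, 325 were also called higher at T0 and 7 were called lower. Of the 435 lower clones, 199 were also called lower at T0 and 4 higher. The median T0 difference was 0.80 for the higher and -0.46 for the lower Ctrl clones. The remaining 368 clones called in Ctrl were not called at T0, and 111 of them were called in all 3 cultured conditions. The Ctrl and T0 differences were unequal by the interaction test at 661 of all clones (8.09%), 216 of them among the 903. The Ctrl difference was the more positive at 332 (4.06%) and the more negative at 329 (4.02%). The 903 clones were chosen by their Ctrl difference, a term of this interaction, so the choice itself raises the count of 216. All counts are limma calls at an adjusted p under 0.05.

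The leading clones are given with their T0 values. Clone tcay0035.a.07 differed more before culture, with 6.86, 6.91 and 7.06 on the stage I-II T0 arrays and 9.89, 9.92 and 10.47 on the stage III T0 arrays. Its T0 difference of 3.15 exceeds that in Ctrl by 1.26 (interaction -1.26, limma adjusted p = 0.0012). For tcba0019.j.11 the T0 difference was 2.77 and the interaction of -0.69 was not called (adjusted p = 0.308). This rests on 1 array: the stage I-II T0 values were 6.62, 6.92 and 8.49, and without array 3 the T0 difference was 3.34 and the interaction of -1.26 was called (limma, adjusted p = 0.0169). Both lower clones had lower levels before culture than in Ctrl at both stages. Clone tcad0008.j.15 had 7.16, 7.19 and 7.33 on stage I-II T0 arrays and 6.81, 6.98 and 7.31 on stage III T0 arrays, a difference of -0.19 (adjusted p = 0.619) that overlaps. Its interaction of -1.85 was called (limma, adjusted p = 4.08e-05). Clone tcay0009.l.07 had a T0 difference of -0.57 (adjusted p = 0.0255, lost in 3 of 6 fits that left out 1 T0 array, up to 0.253) and an interaction of -1.25 (adjusted p = 0.000427). Its mean was 7.93 at T0 and 12.60 in Ctrl for stage I-II, against 7.36 and 10.78 for stage III. The stage difference of tcad0008.j.15 was thus present in each cultured condition and not called before culture.

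Of the 375 clones called in all 3 cultured conditions, 259 were called in the same direction at T0 and 111 were not called there. By direction, 159 of 186 higher clones were called the same way at T0 and 100 of 189 lower clones. The remaining 5 clones were called the opposite way at T0 and are named because there are so few, chosen after their values were seen. Clone tcbk0013.j.13 was lower in stage III, with log2 differences of -0.92 in Ctrl, -1.59 with FSH and -1.25 with LH, and at T0, where no stage I-II array had signal above background, stage III had the higher signal by at least 1.11-fold (limma, adjusted p = 0.0132; 0.123 without stage I-II array 3 and 0.0716 without stage III array 6). Its level was far higher with either hormone: stage I-II arrays lay at 7.03 to 7.81 in Ctrl, 10.46 to 11.30 with FSH and 10.28 to 11.01 with LH. Stage III arrays of tcbk0013.j.13 lay at 6.12 to 7.0, 8.88 to 9.33 and 9.20 to 10.01, below stage I-II in each condition with no overlap.

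Clone 1rt28e12_c_c06 was lower in stage III, with log2 differences of -1.04 in Ctrl, -0.83 with FSH and -0.96 with LH, with no overlap in any of them. At T0 its signal was above background on no array of either stage, so no fold is given there, and its T0 call was lost without stage I-II array 3 (limma, adjusted p = 0.0996). Clone tcbk0057.n.15 was higher by 0.71 in Ctrl, 0.56 with FSH and 0.82 with LH, against -0.54 at T0 (limma, adjusted p = 0.0305); the T0 call was lost without stage I-II array 2 or 3 or stage III array 4 or 5 (adjusted p up to 0.113). Clone tcay0025.h.13 was lower in stage III, at -0.48 in Ctrl, -0.47 with FSH and -0.66 with LH, against 0.66 at T0 (adjusted p = 0.00702); its spot touches a brighter one and exceeded background on 2 of 6 stage III Ctrl arrays. With the control level as a covariate its Ctrl difference had an adjusted p of 0.187 and its FSH difference 0.0533 (limma). Clone 1rt139f21_b_c11 was higher by 0.51 in Ctrl, 0.55 with FSH and 0.96 with LH, against -0.78 at T0 (adjusted p = 0.0154), and its spot touches a brighter one. Its opposite T0 call rests on stage I-II T0 array 2, at 10.37 where the others had 8.79 and 9.12: without that array the T0 difference was -0.31 (limma, adjusted p = 0.384), and without stage III array 4 it was -0.71 (adjusted p = 0.0652). Its Ctrl call was close to the threshold (adjusted p = 0.0486) and was lost in 8 of 12 fits that left out 1 Ctrl array (adjusted p up to 0.13), and its FSH call in 5 of 12 that left out 1 FSH array. The Ctrl call was also lost from scanner values (limma, adjusted p = 0.0919) and with export order as a block (0.0618). With the control level as a covariate both calls were lost (limma, adjusted p = 0.647 in Ctrl and 0.181 in FSH).

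The called clones were not spread evenly over the membrane's signal range. With clones ranked by mean signal into 4 equal groups, from the dimmest to the brightest, 4.84%, 10.9%, 12.9% and 15.6% were called in Ctrl, and 21.2%, 39.5%, 45.2% and 46.2% of those calls were made in all 3 conditions. Clone IDs begin with letters whose meaning the sources used here do not give. Among the 2834 IDs that start with 1rt, 3.92% were higher in stage III and 5.29% lower. Among the 1888 that start with tcbk, 5.4% were higher and 5.88% lower. Among the 1386 that start with tcay, 7.65% were higher and 4.83% lower, and among the 831 that start with tcba, 6.86% and 3.49%. Smaller groups went either way, such as tcbi (8.76% higher and 3.65% lower) and tcaa (7.07% and 10.1%). Whether the prefixes differ was not tested. A touching spot over 4 times brighter was found for 52.0% of all clones, for 33.9% of the clones called in Ctrl and for 26.9% of those called in all 3 conditions. Of the 903 clones, 434 touched another called in the same direction, and of the 375 persisting clones 87 touched another of them. The share of all clones that touch such a clone was not counted, so these counts do not show whether called clones lie together. Whether neighbouring spots share signal was not tested. Among the 468 higher clones, 60 lay at positions above background on no stage I-II Ctrl array, and among the 435 lower clones, 50 on no stage III Ctrl array. In 19 of the 468 and 8 of the 435 the stage called brighter, III and I-II respectively, was itself above background on none of its Ctrl arrays.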

How the data were processed

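Total RNA (5 µg per sample, per the labels) was reverse-transcribed with 33P and hybridised to 42 membranes. The authors deposited 1 table of log2 values by clone; how it was normalized is not stated in the labels or headers used here. They also deposited 1 AGScan export per array with spot intensity for 9216 positions and, per the file headers, no background column. Set against log2 intensity, the table ran the same way with slopes of 0.95 to 1.07 per array. Clones had been paired with positions by matching these same values, so agreement in direction is built in. The table is taken here as log2. Clone means over the 42 arrays ran from 4.54 to 14.9, so it is not centred by clone.

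Of 9216 table rows, 8175 held values and were tested. The rest were empty: 64 water, 128 cvu03687 and 849 clones. In limma 3.58.1 (R 4.3.3), 8 group means were fitted to all 42 arrays with empirical Bayes moderation. Each comparison's two-sided p-values received a Benjamini-Hochberg adjustment over all clones, and the fit was tested on simulated data. Groups follow the sample titles. Array levels were compared by exact permutation tests. No low-value filter was applied, and the number of arrays limits precision.

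The exports name positions, not clones, so clones were paired 1 to 1 with positions by the least total squared difference of their array profiles. In 94.5% of pairs the position was also the clone's nearest, and in 87.0% each was the other's nearest. The 192 positions A07, A11 and A12 of each of the 64 blocks were taken as controls (A07 as water, the other 128 as cvu03687) because the counts match those of the named control rows. Control level, brighter neighbours (over 4 times, among 8 around a spot) and background (a threshold of 3 scaled median absolute deviations) rest on this pairing and inference. A clone not above background on any array of a group is given as a lower bound: the brighter stage's mean quantile-normalised signal against the higher of the dim stage's own signal and the lowest signal above background on each array.

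Clones are named by a rule. From calls in Ctrl, the 2 greatest rises and 2 greatest falls were taken. From clones called in all 3 conditions came the 2 higher and 2 lower ones with the greatest smallest difference. No interaction was called, so the 2 clones with the lowest interaction p were taken for each hormone. The last are the 2 that lost most of their Ctrl difference among clones called in neither hormone. The comparison, the rule and the lists were chosen with earlier results of these data known. Alternatives covered the samples in the fit, normalization, dim clones, moderation, array weights, scanner values, control level, bright neighbours, export order, the threshold and each array left out. Empty clone rows were not analysed by clone.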

Additional observations from a re-analysis of the deposited data

Results flagged for a closer look

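Of 132 groups of 6 arrays examined for a value far from the rest (Dixon's criterion, which chance passes in about 1 of 20 groups), 6 passed counting the control level. For tcad0008.j.15, stage I-II LH array 33 was high at 11.60. For 1rt94b04_d_a02, stage III FSH array 65 was low at 6.92 and stage III LH array 67 was high at 8.77. For 1rt124h16_d_d08, stage III LH array 69 was low at 6.91. For 1rt128j01_b_e01, stage III Ctrl array 58 was low at 8.77. The control level of stage I-II Ctrl array 19 was high at 420 intensity units.

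The stage difference in Ctrl differed from that at T0 by the interaction test for 14 of the clones named, as signed log2 differences of Ctrl minus T0. It was -1.26 for tcay0035.a.07, -1.85 for tcad0008.j.15, -1.25 for tcay0009.l.07, 0.89 for tcbk0004.d.07 and 1.89 for 1rt65f10_d_c05. The other named clones, several of them chosen for their T0 values, gave 1.29 for 1rt139f21_b_c11, -1.53 for 1rt28e12_c_c06, -1.15 for tcay0025.h.13, -1.69 for tcbk0013.j.13 and 1.25 for tcbk0057.n.15. Among the clones of at least 2-fold difference it was 1.62 for 1rt124h16_d_d08, -1.14 for 1rt128j01_b_e01, -1.31 for tcay0034.k.06 and -1.26 for tcbk0055.b.19. Adjusted p-values in limma ran from 2.82e-07 to 0.0371. Over all 8175 clones this interaction was called for 8.09%. The named clones were chosen by values that include their Ctrl difference, a term of this interaction, so the choice itself raises the count of 14. For the clones chosen because their T0 and Ctrl calls were opposite, the outcome was nearly fixed in advance. For 1rt28e12_c_c06 (both stages at T0), tcbk0013.j.13 (stage I-II at T0), 1rt124h16_d_d08 (stage III at T0) and tcbk0055.b.19 (stage I-II at T0 and in Ctrl) a compared group was above background on none of its arrays, so these 4 are fitted values with no measured size. Leaving out 1 T0 array ended the call for tcbk0004.d.07 (0.73 without stage I-II array 1), 1rt139f21_b_c11 (0.82 without stage I-II array 2), tcay0034.k.06 (without stage I-II array 3 or stage III array 5, adjusted p 0.0572 and 0.0516) and tcbk0055.b.19 (4 of 6 arrays, adjusted p up to 0.173), and it made a call for tcba0019.j.11 (-1.26 without stage I-II array 3) and tcay0025.d.21 (-0.87 without stage I-II array 2).

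The 11% of 8175 clones called in Ctrl came from the deposited table, while the scanner values gave 1268 calls over 9024 clone positions. Stage differences were also called from scanner values at positions with no clone assigned. Of 849 such positions, 48 (5.65%) were called in Ctrl, 20 higher and 28 lower in stage III, and 17 were called the same way in Ctrl, FSH and LH. Among the 849, 270 were above background on no array and 123 on all 42.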

How the results depend on the processing

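The counts in Ctrl, FSH and LH stayed within 1.5 times of those reported when the fit used only the compared groups, when the table was quantile-normalised or centred, and with a filter on dim clones, trend and robust moderation, array weights, scanner values, export order as a block or no bright neighbours. With the control level as a covariate the Ctrl count was 399 and that of clones called in all 3 conditions 237. At an adjusted p under 0.01 the counts were 510 in Ctrl, 523 in FSH, 516 in LH and 220 in all 3. The fit on scanner values covered 9024 clone positions, assigned to a clone or not, rather than 8175 clones. It made 600 calls in all 3 conditions and 1 FSH interaction call, where the table gave 0. The LH interaction count was 0 in each alternative. Leaving out each array in turn gave 715 to 933 calls in Ctrl, 789 to 904 in FSH, 752 to 904 in LH, 333 to 378 in all 3, 1472 to 1655 at T0, 495 to 686 for Ctrl against T0, and 0 to 0 for both hormone interactions. Of 1099 values of named clones in Ctrl, FSH, LH or a hormone interaction under an alternative, 36 passed or lost the threshold. No called value among them reversed its direction. T0 differences and the interaction of Ctrl against T0 are not among the 1099. Leaving out 1 T0 array ended or made further calls of these kinds, as given above. The stricter threshold makes fewer calls by construction. Array medians of the table already lay between 7.15 and 7.17, so centring could change little. Some values recur exactly on several arrays, such as 13.96 for 1rt65f10_d_c05, so quantile normalization may change little too. Those alternatives therefore say little about how the results depend on normalization. With the covariate, standard errors were 1.36 times as large in Ctrl and 1.01 times in LH. Estimates moved too, as for 1rt139f21_b_c11 in Ctrl, from 0.51 to 0.25. Why the counts changed with the covariate and with the scanner values was not tested. No paired analysis was possible because the labels do not tie arrays to fish, so whether conditions share fish is unknown. Depth has no counterpart here, but signal over background limits dim clones. In Ctrl, 60 higher calls were above background on no stage I-II array and 50 lower calls on no stage III array. Every alternative was planned.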
